A study of Homo sapiens with 8 samples.

Results

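Mitochondrial ribosomal protein genes encode the proteins of the ribosome that works inside mitochondria. Members were the genes whose platform symbol is MRPL or MRPS followed by digits and an optional letter A or B, and each gene was represented by its brightest probe, selected on the mean level over the 8 arrays. This rule found 75 genes, 48 named as large subunit proteins (MRPL) and 27 as small subunit proteins (MRPS), among 10443 genes tested. All 75 were above background on all 8 arrays. Brightness chose the probes, so their levels are given as a description, and they are not compared between genes because probes differ in brightness for the same amount of RNA.

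The cells were of the DOHH2 line, which was established from a human transformed follicular lymphoma, a B-cell cancer. One group received BAY1238097, an inhibitor of the BET bromodomain proteins that bind acetylated histones at active genes, and the other received the solvent DMSO. Each group had 1 Illumina bead array at each of 4, 8, 12 and 24 h, which makes 4 arrays per group. The labels used here give no dose, and all arrays come from 1 cell line. Whether each array had a culture of its own is not stated either, so p-values reflect the spread over the times of a single time course, part of which may be technical.

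Mitochondria translate a small set of messenger RNAs from their own genome, all of which encode subunits of the respiratory chain and ATP synthase. The ribosomal RNAs come from that same genome, but every protein of the mitochondrial ribosome is encoded in the nucleus, made in the cytosol and imported. Part of these proteins descend from bacterial ribosomal proteins, and the rest were added during the evolution of mitochondria. In lymphoma cells MYC is a known activator of genes for ribosomes and mitochondria, and BET inhibitors are known to lower MYC in many blood cancer lines.

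The B cell markers CD79A, CD79B and MME were above background on all 8 arrays, while MS4A1 and CD22 were above it on 6 and 5 arrays. Among 7 B cell markers measured, PAX5, a transcription factor of the whole B cell lineage, and BCL6, a factor of germinal centre B cells, were above background on 0 arrays. None of 5 T cell and 4 myeloid markers was above background on all 8 arrays. Between 17438 and 19122 probes were above background on each array. Over the probes kept, the BAY1238097 array was dimmer than the DMSO array of the same time before normalisation, with mean log2 differences of -0.011, -0.26, -0.24 and -0.32 at 4, 8, 12 and 24 h. The part of this brightness difference in the results was not tested. Median scaling, given with the first count, cannot decide it, because the medians it aligns lay near background. Median intensities of the arrays were 88.6 to 114, against medians of 82.5 to 102 for the olfactory receptor probes that served as background.

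The first comparison asked how the members differed between BAY1238097 and DMSO at matched times. Falls were seen in proteins of both subunits, led by MRPL34, MRPL3 and MRPS17, and a rise in 1 protein of the stalk. With quantile normalisation, 29 of the 75 members (38.7%) fell with an adjusted p under 0.05 in limma, where 14.8% of all genes tested fell and 30.3% passed in either direction. MRPL10 was the 1 member that rose (1.33%), against 15.5% of all genes. The median difference of the members was -0.197 on the log2 scale, against 0.00996 for all genes. Among the 8693 genes that were above background on every array, as the members were, 15.9% fell. With median scaling in place of quantile normalisation, 44 members fell and 0 rose, and among all genes 23.2% fell and 7.73% rose. Without the 8 h arrays 16 members fell (5.86% of all genes), and without the 12 h arrays 15 fell (6.2% of all genes). With the time left out of the model 11 fell, against 7.3% of all genes. In RNA pooled from many cells, less RNA per cell and fewer cells that make it cannot be told apart.

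In counts that need no model, 37 of the 75 members were lower under BAY1238097 at all 4 times, as were 22.4% of all genes. The 4 BAY1238097 arrays all lay below the 4 DMSO arrays for 14 members, against 9.57% of all genes, and all lay above them for 1 member, against 10.4%. Of the 45 members that passed no threshold, 31 were lower and 14 were higher, with differences between -0.477 and 0.234. The members nearest to the threshold on either side were MRPL20, with an adjusted p of 0.0441, and MRPL46, with an adjusted p of 0.0542. The differences between the members spread from -0.80 to 0.25, while the median standard error of a member was 0.0723.

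**Figure D1:**
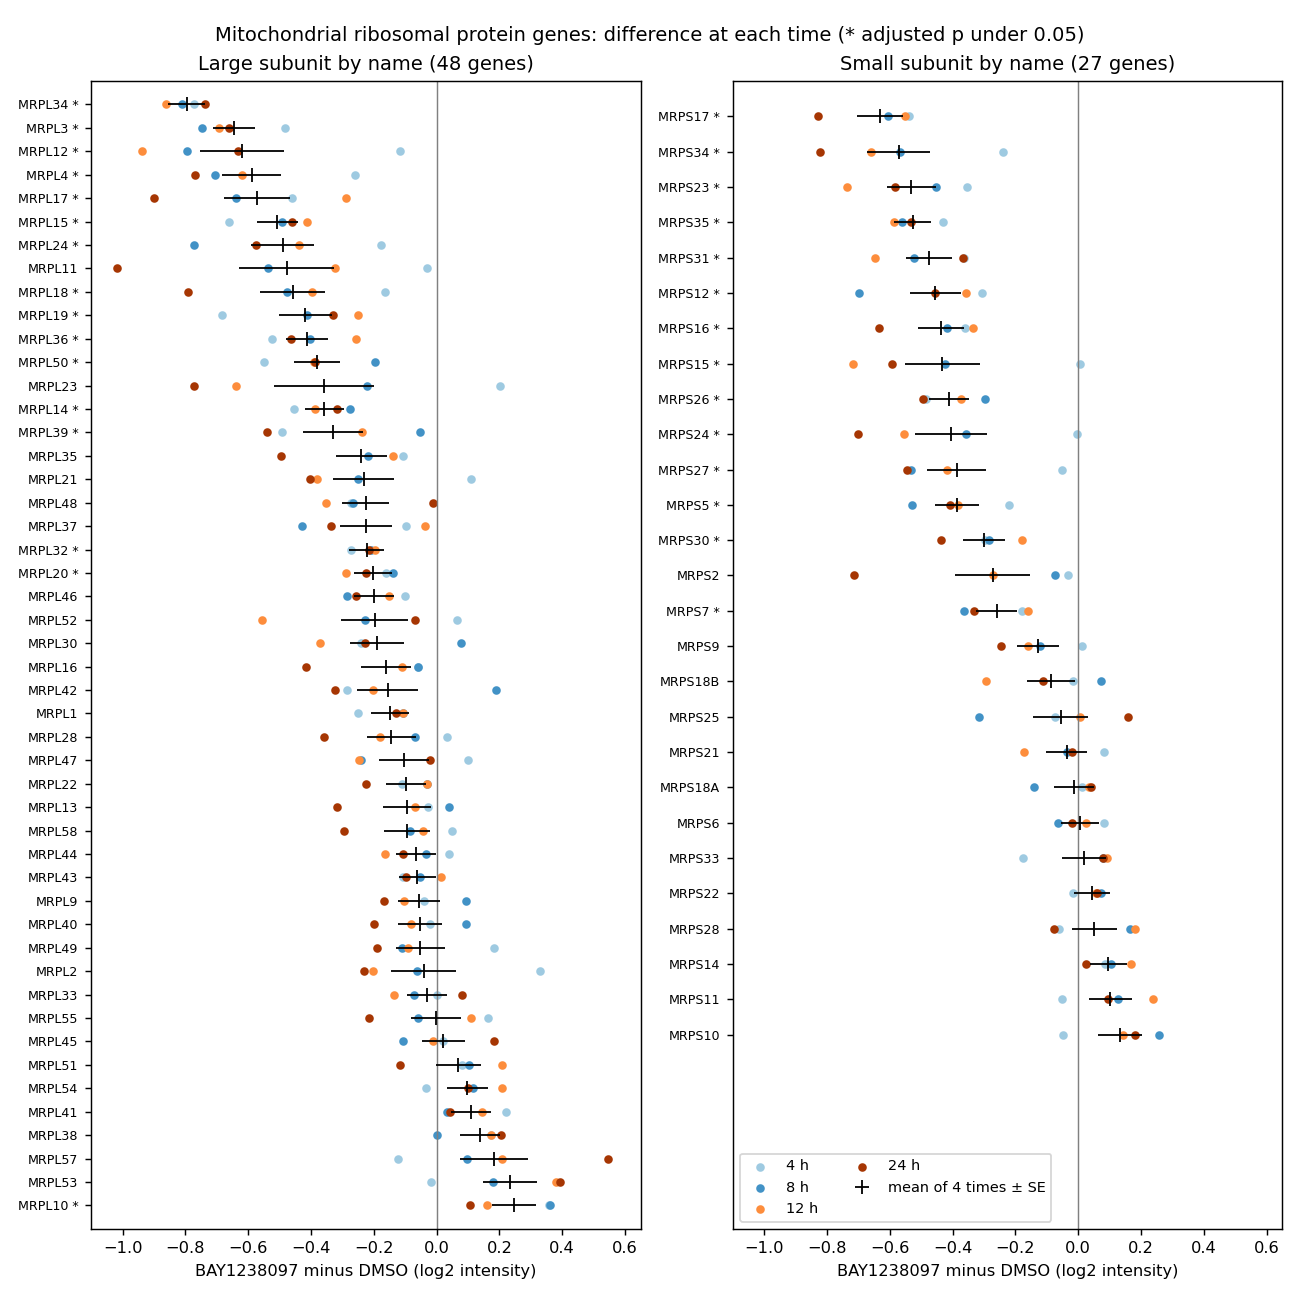
Each row is 1 mitochondrial ribosomal protein gene, with the difference BAY1238097 minus DMSO in log2 intensity at 4, 8, 12 and 24 h as points and the mean of the 4 times with its standard error as a cross; a star marks an adjusted p under 0.05. In the left panel (large subunit, 48 genes) the means run from -0.80 for MRPL34 to 0.25 for MRPL10, and in the right panel (small subunit, 27 genes) from -0.63 for MRPS17 to 0.13 for MRPS10.

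Promoter sequences around the gene start are shown for members that fell. RefSeq sequences of GRCh38.p14 from 250 bases before to 50 bases after the gene start were available for 67 members. They were searched on both strands for CCGGAAGT, a core bound by ETS factors such as GABP, for the core of the YY1 motif, for CACGTG, the E-box bound by MYC with MAX, and for the palindrome bound by NRF1. The YY1 core occurred in 13 of the 67 (19.4%), against 3.55% of the promoters of 8418 genes tested. CCGGAAGT occurred in 11 (16.4%, against 10.8%) and CACGTG in 8 (11.9%, against 12.7%). The NRF1 palindrome occurred in MRPL17 alone (1.49%, against 2.84%). No match of CCGGAAGT overlapped one of the YY1 core. The shares among members that fell and the others are given with no test of the difference. The YY1 core stood in 17.9% of the 28 members that fell and in 20.5% of the 39 that did not. CCGGAAGT stood in 14.3% of those that fell and 17.9% of the others, and CACGTG in 7.14% and 15.4% of the same sets. A match is a description of the letters and not a site of binding.

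All 4 members that fell and carry CCGGAAGT hold it within the 100 bases before the start, and those bases are printed here on the strand of the gene, with the match in capitals. Where the capitals read ACTTCCGG, the match lies on the opposite strand. MRPL3 (chr3:131502972-131503071, minus strand) has its match from position -32, MRPL18 (chr6:159790367-159790466, plus strand) from -27, MRPL20 (chr1:1407294-1407393, minus strand) from -44 and MRPS34 (chr16:1773135-1773234, minus strand) from -20, counted so that -1 is the last base before the start.
MRPL3: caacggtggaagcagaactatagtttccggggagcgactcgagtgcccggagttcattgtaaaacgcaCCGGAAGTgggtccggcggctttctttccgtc
MRPL18: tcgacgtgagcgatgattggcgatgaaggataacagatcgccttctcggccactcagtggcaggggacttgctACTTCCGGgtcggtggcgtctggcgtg
MRPL20: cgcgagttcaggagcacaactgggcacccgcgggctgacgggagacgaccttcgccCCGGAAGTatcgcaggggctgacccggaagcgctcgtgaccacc
MRPS34: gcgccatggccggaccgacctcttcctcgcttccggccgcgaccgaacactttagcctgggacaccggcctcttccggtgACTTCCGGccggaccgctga

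The YY1 core sits at another place. Of its 13 matches, 11 lie on the strand of the gene and 10 start at or after the gene start. For the 5 members that fell and carry it, 30 bases around the match are printed on the strand of the gene, with the match in capitals, which run as the reverse complement in MRPL36 and MRPL32. MRPL50 (chr9:101398576-101398605, minus strand), MRPS24 (chr7:43869479-43869508, minus strand) and MRPS30 (chr5:44808950-44808979, plus strand) have the match from positions 24, 20 and 14 of the transcript. MRPL36 (chr5:1799855-1799884, minus strand) and MRPL32 (chr7:42932142-42932171, plus strand) have it from positions -37 and -224.
MRPL50: gatctcatcgAAGATGGCGGcgcgatctgt
MRPS24: cgcttggcccAAGATGGCGGcctccgtgtg
MRPS30: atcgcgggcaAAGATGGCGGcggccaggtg
MRPL36: cccccccccgCCGCCATCTTccttcctggc
MRPL32: tacccgcgctCCGCCATCTTtacccgaaga

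The large subunit holds the peptidyl transferase centre, where peptide bonds form, and the tunnel through which the new chain leaves. MRPL34, a small basic protein with a bacterial homolog, had the largest fall of all members. Its levels were 8.40, 8.64, 8.99 and 8.84 on the BAY1238097 arrays at 4, 8, 12 and 24 h, against 9.17, 9.46, 9.85 and 9.58 on the DMSO arrays (log2 intensity). Both groups were highest at 12 h and did not overlap. The fall was -0.80 ± 0.06 (SE, 4 times), 1.74-fold lower, with an adjusted p of 0.000947 in limma, and it lay between -0.74 and -0.86 at each time. Only 1.69% of all genes had a difference at or below it.

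MRPL3, a homolog of the bacterial protein L3 that reaches towards the peptidyl transferase centre, was 11.47, 11.24, 11.02 and 10.92 with BAY1238097, against 11.95, 11.99, 11.72 and 11.58 with DMSO at 4, 8, 12 and 24 h. Again the groups did not overlap. MRPL3 had a log2 fall of -0.65 ± 0.07, or 1.56-fold, with an adjusted p of 0.00198. Its promoter is the first of those printed with CCGGAAGT.

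The groups overlapped in MRPL17, MRPL15 and MRPL18, which also fell. MRPL17, which has a bacterial homolog and the only NRF1 palindrome among the members, was 9.96, 9.78, 9.55 and 9.09 with BAY1238097, against 10.42, 10.42, 9.84 and 9.99 with DMSO. Its difference was smallest at 12 h (-0.29) and largest at 24 h (-0.90), with a mean of -0.57 ± 0.10 (adjusted p = 0.00944). MRPL15, also with a bacterial homolog, was 9.71, 9.50, 9.16 and 9.03 with BAY1238097, against 10.37, 9.99, 9.58 and 9.49 with DMSO, and fell by 0.51 ± 0.07 (adjusted p = 0.00358). Both groups of MRPL15 declined over time, so that the 4 h BAY1238097 array lay above the 12 and 24 h DMSO arrays, while the difference kept its sign at each time. MRPL18, a homolog of the bacterial protein that binds ribosomal RNA in the central protuberance, fell by 0.46 ± 0.10 (adjusted p = 0.0184), with differences of -0.17, -0.48, -0.40 and -0.79 at 4, 8, 12 and 24 h. Without the 8 h arrays MRPL17 and MRPL18 had adjusted p of 0.0556 and 0.0826, and without the 12 h arrays MRPL18 had 0.0715.

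Around the exit tunnel the members did not move alike by their brightest probes. MRPL4, which lines the tunnel, was 7.89, 7.75, 8.15 and 7.87 with BAY1238097, against 8.15, 8.46, 8.77 and 8.64 with DMSO, a fall of 0.59 ± 0.09 (adjusted p = 0.00666). MRPL24, at the tunnel exit, was 9.96, 9.81, 10.40 and 10.08 with BAY1238097, against 10.14, 10.58, 10.84 and 10.66 with DMSO, a fall of 0.49 ± 0.10 (adjusted p = 0.0136). Leaving out the 8 h arrays gave MRPL24 an adjusted p of 0.0629, and leaving out the 12 h arrays one of 0.0602, both past 0.05. MRPL22, whose bacterial homolog also lines the tunnel, had a difference of -0.10 ± 0.06 (adjusted p = 0.29), and MRPL45, a mitochondria-specific protein at the exit that faces the inner membrane, one of 0.02 ± 0.07 (adjusted p = 0.846). With median scaling MRPL22 was -0.311 (adjusted p = 0.0245) and MRPL45 -0.2 (adjusted p = 0.097). The other kept probe gave -0.2306 for MRPL4, -0.3906 for MRPL24, -0.2855 for MRPL22 and -0.2402 for MRPL45. Their adjusted p over all probes were 0.0513, 0.00962, 0.0519 and 0.027, so the contrast rests on the brightest probes. MRPL23, also at the exit, is described with the time courses.

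The stalk of the large subunit recruits translation factors, and its proteins differed in direction. MRPL12, of which several copies form the stalk, was 8.77, 8.62, 8.96 and 8.74 with BAY1238097, against 8.89, 9.41, 9.89 and 9.37 with DMSO. The DMSO arrays covered a wider range than the BAY1238097 arrays, and the groups overlapped only through the 4 h DMSO array. MRPL12 fell by 0.62 ± 0.13 (1.54-fold lower, adjusted p = 0.0155), with differences of -0.12, -0.79, -0.94 and -0.63. Leaving out the 8 h arrays raised that adjusted p to 0.0798, and leaving out the 12 h arrays to 0.0731. MRPL10, which anchors MRPL12 to the ribosome, was the only member that rose: it was 8.41, 8.27, 8.20 and 8.21 with BAY1238097, against 8.05, 7.91, 8.04 and 8.11 with DMSO, and the groups did not overlap. Its rise was 0.25 ± 0.07 (adjusted p = 0.0414) and did not pass when the 4, 8 or 12 h arrays were left out (adjusted p of 0.0669, 0.174 and 0.11) or with median scaling (0.11, adjusted p = 0.361). MRPL11, at the base of the stalk and chosen here after its values were seen, had a difference of -0.48 ± 0.15 that missed the threshold (adjusted p = 0.0546), with -0.03 at 4 h and -1.02 at 24 h.

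**Figure D2:**
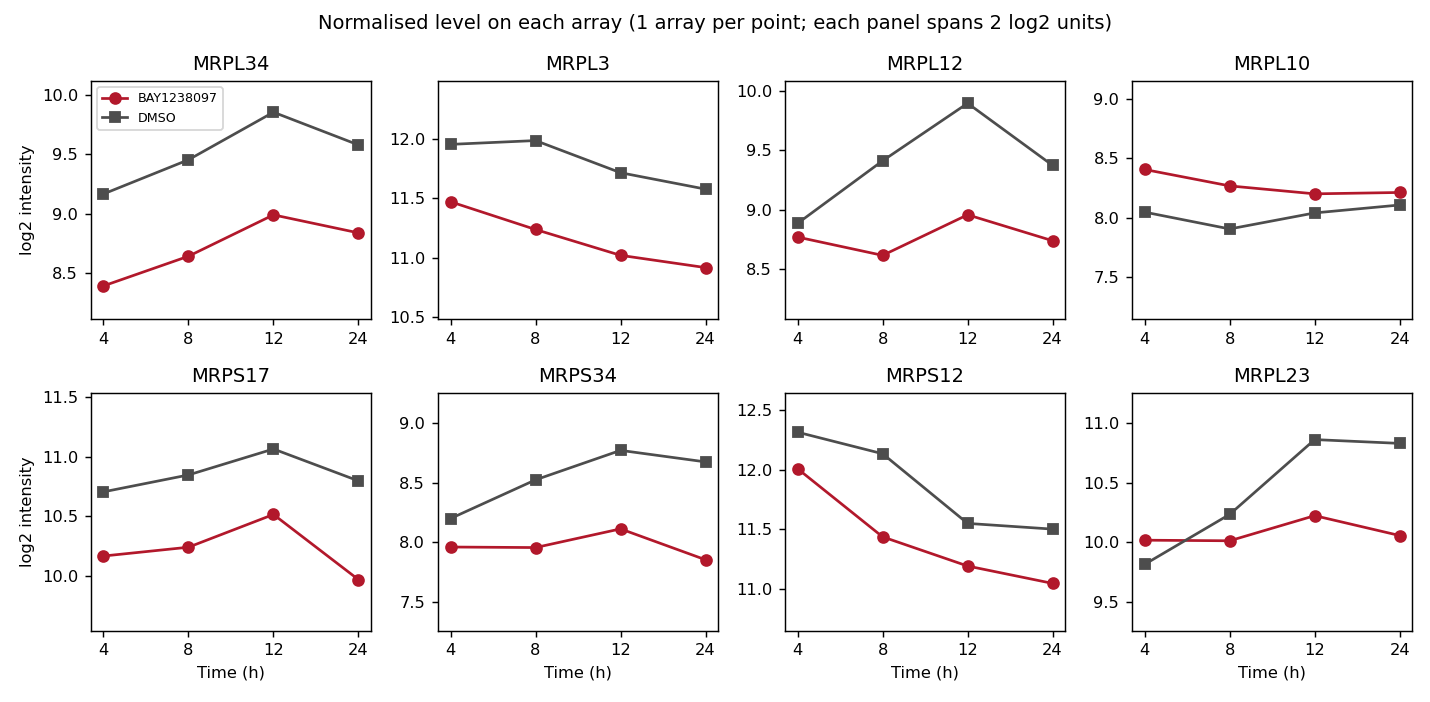
Each panel gives 1 gene's normalised log2 intensity on the 4 BAY1238097 arrays (red circles) and the 4 DMSO arrays (grey squares) against time in hours, 1 array per point with no error bar. The BAY1238097 line lies below the DMSO line at every time for MRPL34, MRPL3, MRPL12, MRPS17, MRPS34 and MRPS12, above it for MRPL10, and crosses it after 4 h for MRPL23.

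The small subunit binds messenger RNA and reads the codons. MRPS17, a homolog of a bacterial protein that binds ribosomal RNA early in assembly, was 10.16, 10.24, 10.51 and 9.97 with BAY1238097, against 10.70, 10.85, 11.06 and 10.80 with DMSO. The groups did not overlap. MRPS17 fell by 0.63 ± 0.07 (1.55-fold lower, adjusted p = 0.00236). MRPS12, a homolog of the bacterial protein at the decoding centre, was 12.01, 11.44, 11.19 and 11.05 with BAY1238097, against 12.32, 12.14, 11.55 and 11.50 with DMSO, a fall of 0.45 ± 0.08 (adjusted p = 0.00877). MRPS12 declined over time in both groups, which is why its groups overlapped although each time gave a lower BAY1238097 value. MRPS16, loss of which causes a human respiratory chain disease, was 9.25, 9.31, 8.95 and 8.62 with BAY1238097, against 9.61, 9.73, 9.28 and 9.26 with DMSO, a fall of 0.44 ± 0.07 (adjusted p = 0.00724).

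The mitochondria-specific proteins of the small subunit supplied 4 of the named falls, and in none of them did the groups overlap. MRPS34 was 7.96, 7.96, 8.11 and 7.85 with BAY1238097, against 8.20, 8.52, 8.77 and 8.68 with DMSO, a fall of 0.57 ± 0.10 (adjusted p = 0.00835). Its difference was -0.24 at 4 h and -0.82 at 24 h, and its promoter is printed with CCGGAAGT. MRPS23 was 8.57, 8.63, 8.45 and 8.30 with BAY1238097, against 8.92, 9.09, 9.18 and 8.88 with DMSO, a fall of 0.53 ± 0.08 (adjusted p = 0.00507). MRPS35 was 9.26, 9.41, 9.44 and 9.41 with BAY1238097, against 9.69, 9.97, 10.03 and 9.95 with DMSO, a fall of 0.53 ± 0.06 (adjusted p = 0.00236). In MRPS35 the 4 differences lay close together, between -0.43 and -0.59. MRPS31 was 10.74, 10.65, 10.40 and 10.39 with BAY1238097, against 11.10, 11.17, 11.05 and 10.75 with DMSO, a fall of 0.48 ± 0.07 (adjusted p = 0.0055).

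Of the 15 falls described, 11 stayed past the threshold whichever time was left out. The further 14 members that fell had differences between -0.432 and -0.203. Among them MRPS15, chosen here after its values were seen, was the only called fall that was not lower at all 4 times, with a difference of 0.01 at 4 h and of -0.43, -0.72 and -0.59 later. At the other end, 4 members had the smallest differences. MRPL55 had -0.0014 ± 0.080, MRPS6 0.01 ± 0.06, MRPS18A -0.01 ± 0.06 and MRPS33 0.02 ± 0.07. They were chosen for their small size, so their intervals are a description: the 95% confidence interval ran from -0.193 to 0.191 for MRPL55 and from -0.137 to 0.147 for MRPS6, which was -0.16 with median scaling. The signs of these 4 differed between settings.

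Split by name, 15 of 48 large subunit genes fell (31.2%) and 1 rose, and 14 of 27 small subunit genes fell (51.9%) and 0 rose. The median difference was -0.176 for the large and -0.273 for the small subunit, and no test of that difference was made because genes are not replicates. With median scaling the counts were 28 of 48 (58.3%) and 16 of 27 (59.3%), so the shares were close together, with medians of -0.36 and -0.439. MRPS18A and MRPS30 lie in the large subunit in structures of the human ribosome, and counted by structure 16 of 50 large and 13 of 25 small subunit genes fell.

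Both medians were further from 0 at 24 h than at 4 h. Medians of the large subunit were -0.0997, -0.109, -0.189 and -0.244 at 4, 8, 12 and 24 h. Those of the small subunit were -0.0621, -0.296, -0.271 and -0.366. All genes had medians of 0.013, 0.0101, 0.00428 and 0.00422 at the same times. At 4 h 53 of the 75 members were lower (70.7%), against 47.6% of all genes, and at 24 h 60 were lower (80%), against 49.4%. The brightness differences between the arrays of a pair were -0.011, -0.26, -0.24 and -0.32 at these times. With quantile normalisation the small subunit medians had the same order over the times as these differences. The large subunit medians did not, as the one at 8 h was near that at 4 h. The part of brightness in these medians was not tested, and the change of scaling cannot decide it because array medians lay near background. With median scaling the medians were -0.134, -0.364, -0.37 and -0.517 in the large subunit and -0.114, -0.543, -0.427 and -0.631 in the small one.

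**Figure D3:**
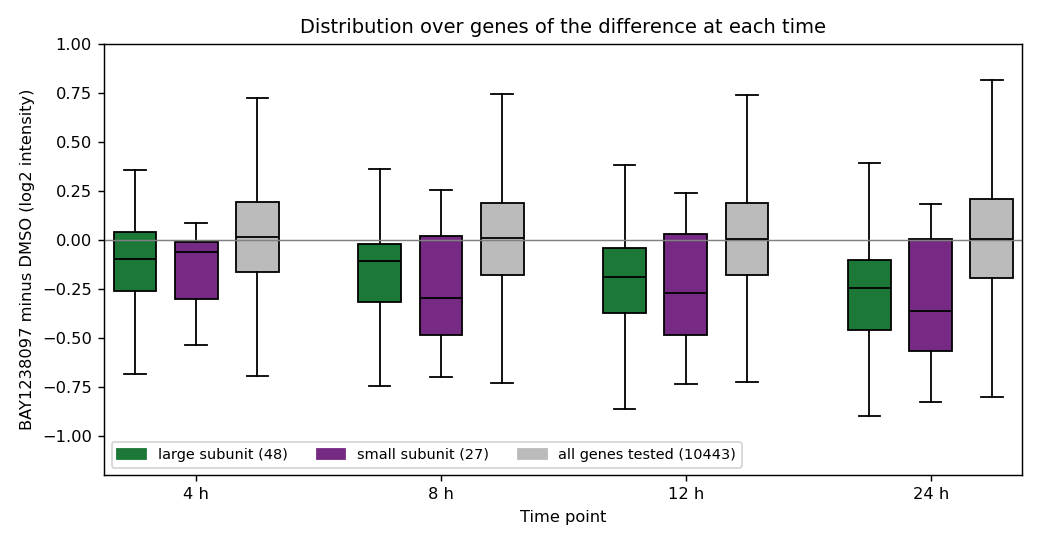
Boxes give the quartiles and median over genes of BAY1238097 minus DMSO in log2 intensity at each time for the large subunit (green, 48 genes), the small subunit (purple, 27 genes) and all genes tested (grey, 10443 genes), with whiskers to the last value within 1.5 box lengths and points beyond them left out. The medians of both subunits lie below 0 at each time and reach -0.244 and -0.366 at 24 h, while that of all genes stays within 0.013 of 0.

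The counts were also taken by origin, which the rule did not use. By the prefix of the standard ribosomal protein names, 29 large subunit proteins were classed as having a bacterial homolog and 21 as mitochondria-specific, with MRPS18A and MRPS30 counted as large. The classes follow the names alone, and protein sequences were not compared, so a protein classed as mitochondria-specific may still have a bacterial relative. Of the 29, 13 fell (44.8%, against 14.8% of all genes) and 1 rose, with a median of -0.231, and 28 had a difference below 0. Of the 21, MRPL50, MRPL39 and MRPS30 fell (14.3%, near the share of all genes), the median was -0.0611, and 14 were below 0. Without the 12 h arrays 7 of the 29 and 0 of the 21 fell, against 6.2% of all genes. In the small subunit 7 of 15 proteins with a bacterial homolog fell (median -0.26), and 6 of 10 mitochondria-specific ones fell (median -0.4). In all, 20 of 44 proteins with a bacterial homolog and 9 of 31 mitochondria-specific proteins fell. With median scaling the counts were 21 of 29 and 8 of 21 in the large subunit, and 8 of 15 and 7 of 10 in the small one, against 23.2% of all genes. No test of this split was made.

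**Figure D4:**
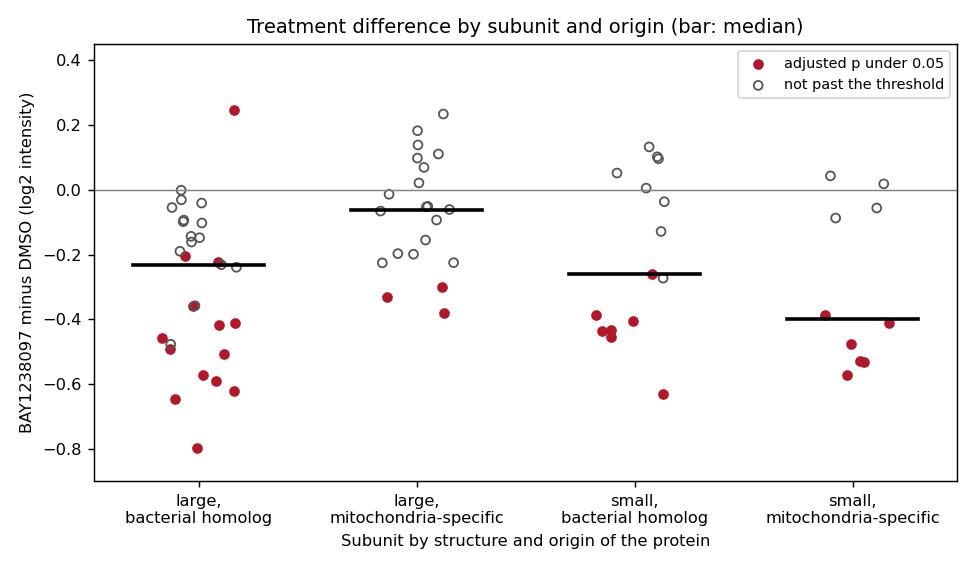
Each point is 1 gene's mean difference BAY1238097 minus DMSO in log2 intensity over the 4 times, with filled points past an adjusted p of 0.05 and a bar at the median of each class. The classes are the 29 large subunit proteins with a bacterial homolog, the 21 mitochondria-specific large ones, the 15 small ones with a bacterial homolog and the 10 mitochondria-specific small ones, with medians of -0.231, -0.0611, -0.26 and -0.4.

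The difference changed with time for 1 member. MRPL23, at the tunnel exit, was 10.02, 10.01, 10.22 and 10.06 with BAY1238097, against 9.81, 10.23, 10.86 and 10.83 with DMSO at 4, 8, 12 and 24 h. The BAY1238097 level stayed nearly flat while the DMSO level climbed after 4 h, so the BAY1238097 array was the higher one at 4 h and the lower one afterwards. The difference changed by -0.39 ± 0.07 per doubling of hours (adjusted p = 0.0389). Among all genes, 3.51% passed this test and 1.69% passed it in this direction. No member passed it without the 12 h arrays, and 6 passed without the 24 h arrays. The shares of all genes in those 2 settings are not given here, so the counts cannot be set against them. Without the 4 h arrays MRPL23 also passed the treatment test (-0.545, adjusted p = 0.011), while over all 4 times it did not (-0.36 ± 0.16, adjusted p = 0.137).

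Levels also drifted over time within each group. In DMSO 6 members declined and 3 climbed, against 4.18% and 3.57% of all genes. With BAY1238097 9 members declined and 0 climbed, against 4.2% and 4.93% of all genes. MRPS18A had the steepest decline in both, -0.41 ± 0.09 per doubling of hours with BAY1238097 (adjusted p = 0.0379) and -0.43 ± 0.09 with DMSO (adjusted p = 0.0386). Its levels were 9.15, 8.55, 8.15 and 8.13 with BAY1238097, against 9.14, 8.69, 8.12 and 8.09 with DMSO, so the gene declined over time with almost the same levels in both groups. MRPS12 had slopes of -0.37 ± 0.08 with BAY1238097 and -0.35 ± 0.08 with DMSO, and MRPL15 of -0.28 ± 0.06 and -0.36 ± 0.06. MRPL22 had slopes of -0.27 ± 0.05 and -0.22 ± 0.05, and each of these slopes passed the threshold, with adjusted p between 0.0221 and 0.0425. MRPL17 declined with BAY1238097 (-0.34 ± 0.08, adjusted p = 0.044), while its DMSO slope was -0.21 ± 0.08 (adjusted p = 0.142).

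The remaining named trends passed the threshold in DMSO and not with BAY1238097, and of these genes only MRPL23, with slopes of 0.03 ± 0.09 with BAY1238097 and 0.43 ± 0.09 with DMSO (adjusted p of 0.837 and 0.0365), passed the test of treatment by time. MRPL19, with a bacterial homolog, declined in DMSO (-0.25 ± 0.05, adjusted p = 0.0378), while its BAY1238097 slope was -0.10 ± 0.05 (adjusted p = 0.246). MRPS27, a protein with RNA-binding repeats, climbed in DMSO (0.36 ± 0.06, adjusted p = 0.0306), and its BAY1238097 slope was 0.19 ± 0.06 (adjusted p = 0.0791). MRPS2 climbed in DMSO (0.22 ± 0.05, adjusted p = 0.0465), with a BAY1238097 slope of -0.05 ± 0.05 (adjusted p = 0.578). These trends depended on the settings: with median scaling, or without the 4 h or the 8 h arrays, 0 members passed in either group. Without the 24 h arrays 4 members declined and 7 climbed with BAY1238097, and 7 declined and 16 climbed with DMSO. Without the 12 h arrays 1 declined with BAY1238097, and 2 declined and 1 climbed with DMSO. The shares of all genes under these settings are not given here, so these counts are not read as a trait of the members. The 4 h arrays were the dimmest of each group, with mean intensities of 262 with BAY1238097 and 264 with DMSO, against 331 to 366 and 383 to 419 later.

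More than 1 probe above background was present for 24 members. In 18 of them all probes had the same sign: in 5 all were called, in 8 none and in 5 some. The other 6 differed in sign. MRPS12 had 3 probes with differences between -0.495 and -0.443, all of them called. MRPL20, named here after its values were seen, had -0.203 with the brightest probe and -0.753 with the other, both called, and MRPL3 had -0.646 and -0.189, both called. MRPS33 was 0.0181 with the brightest probe, while its other probe gave a called rise of 0.353 (adjusted p = 0.0121 over all probes). MRPL45 was 0.0211 and -0.24, the second called (adjusted p = 0.027). MRPL39 was -0.33, called, and 0.0223 with a dim probe. The call of MRPL39 was lost with the mean of its probes (-0.154, adjusted p = 0.121), with no filter on dim probes (0.0648) and without the 4, 12 or 24 h arrays (adjusted p of 0.0722, 0.107 and 0.119). MRPL35 was -0.239, not called, and -0.207 and -0.306, both called. MRPL4 was -0.589, called, and -0.231 (adjusted p = 0.0513), MRPS27 -0.388, called, and -0.311 (adjusted p = 0.0816), and MRPL47 -0.103 and -0.271, the second called. The probes of MRPL43, MRPL55, MRPL57 and MRPS11 differed in sign with none called. The gene table also lists 94 pseudogenes named after 40 of the members, and whether probes share sequence with them was not tested.

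Some members have the start of a gene on the opposite strand close to their own. Of 67 protein-coding members with a position, 18 (26.9%) have a divergent neighbour whose start lies within 1000 bases, against 17.3% of 8256 genes. These neighbours, all named after their values were seen, did not move as one with the members. Of the neighbours measured, only PSMA2, ZNF189 and SARS2 passed the threshold. MRPL32 and PSMA2, a proteasome subunit, both fell (-0.22 and -0.48, adjusted p of 0.0268 and 0.00936). MRPL50 fell by 0.38 while ZNF189 rose by 0.43 (adjusted p = 0.00399), and MRPS12 fell while SARS2, the mitochondrial seryl-tRNA synthetase, rose by 0.43 (adjusted p = 0.0123). MRPL46 and MRPS11 face each other from the 2 subunits, with differences of -0.20 and 0.10 that did not pass the threshold; with median scaling MRPS11 was -0.108.

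The other lists are read beside the 14.8% of all genes that fell and the 15.5% that rose. Of 15 translation factors 7 fell (46.7%) and 1 rose, with a median of -0.231. Without the 8 h arrays 2 of the 15 fell (13.3%, against 5.86% of all genes). Without the 12 h arrays 1 fell (6.67%, against 6.2%), so this share depended on single times. TACO1, an activator of cytochrome oxidase subunit translation, fell by 0.50 ± 0.06 (adjusted p = 0.00262), SLIRP, which stabilises mitochondrial messenger RNAs, by 0.44 ± 0.09 (adjusted p = 0.0146), MRRF, the ribosome recycling factor, by 0.38 ± 0.07 (adjusted p = 0.00898, and 0.0654 for the mean of its probes) and MTRFR, a ribosome rescue factor, by 0.34 ± 0.08 (adjusted p = 0.0171). Of 4 ribosomal proteins with names outside the rule, MRPS18C fell (-0.41 ± 0.08, adjusted p = 0.0112). Of 25 assembly factors 4 fell (16%) and 2 rose, a share of falls near that of all genes, with a median of -0.0199. SPG7, a subunit of the protease that matures MRPL32, rose by 0.64 ± 0.11 (adjusted p = 0.00863), and NOA1, an assembly GTPase, by 0.40 ± 0.06 (adjusted p = 0.00481; 0.204 with an adjusted p of 0.111 under median scaling). FASTKD2, which binds the large ribosomal RNA, fell by 0.48 ± 0.09 (adjusted p = 0.01) and DDX28, a helicase of large subunit assembly, by 0.31 ± 0.06 (adjusted p = 0.0101).

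Genes that make and process mitochondrial RNA had 7 falls (35%) and 0 rises among 20, with a median of -0.197. Without the 8 h arrays, and also without the 12 h arrays, 2 of the 20 fell (10%), against 5.86% and 6.2% of all genes. REXO2, an exonuclease for short RNA fragments, fell by 0.57 ± 0.12 (adjusted p = 0.0148), TFB2M, a factor that starts mitochondrial transcription, by 0.53 ± 0.06 (adjusted p = 0.00269), SUPV3L1, a helicase of RNA decay, by 0.44 ± 0.08 (adjusted p = 0.00854) and PRORP, the nuclease that frees the 5′ ends of transfer RNAs, by 0.38 ± 0.08 (adjusted p = 0.0129). Of 8 regulators of mitochondrial biogenesis 4 fell. MYC fell by 1.13 ± 0.21 (adjusted p = 0.0104), with -1.97 at 4 h and -0.57 at 24 h. A link between MYC and the members was not tested. PPRC1, a coactivator of the PGC family, fell by 0.84 ± 0.07 (adjusted p = 0.00126), GABPB1, a subunit of the ETS factor GABP, by 0.62 ± 0.11 (adjusted p = 0.00908) and PPARGC1B, another coactivator, by 0.42 ± 0.07 (adjusted p = 0.00705). GABPA, the DNA-binding subunit of GABP, was -0.0036 (adjusted p = 0.974) and YY1 -0.07 (adjusted p = 0.559); both are given because their motifs were searched.

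Cytosolic ribosomal protein genes, the closest counterpart, had 3 falls (4.41%) and 4 rises among 68, with a median of 0.0193. Their differences spread little, with quartiles of -0.032 and 0.0611, against -0.1527 and 0.1625 for all genes. The cause of this narrow spread was not tested. RPL29 (-1.30 ± 0.25), RPL36A (-1.01 ± 0.22) and RPS7 (-0.93 ± 0.19) fell and RPS23 rose (0.50 ± 0.10), with adjusted p of 0.0108, 0.0167, 0.0144 and 0.0136. The rise of RPS23 was 0.299 with median scaling (adjusted p = 0.119). Nuclear genes for oxidative phosphorylation subunits, whose partners the mitochondrial ribosome makes, had 11 falls (15.5%) and 3 rises among 71. Their median was -0.0637, and over the 4 times their share of falls was near that of all genes. At 4 h 32.4% of them were lower (median 0.0676), against 47.6% of all genes. At 24 h 74.6% were lower (median -0.136), against 49.4%. Without the 4 h arrays 22 of the 71 fell (31%, against 19.5% of all genes). Without the 8 h or the 12 h arrays 1 fell (1.41%, against 5.86% and 6.2%). ATP5MC1 of the ATP synthase ring fell by 0.72 ± 0.13, NDUFC1 and NDUFA9 of the first respiratory complex by 0.39 ± 0.06 and 0.38 ± 0.08, and UQCR11 of the cytochrome bc complex by 0.34 ± 0.08, with adjusted p of 0.00993, 0.00526, 0.0172 and 0.0222. No test between lists was made. With median scaling the median was 0.0797 for cytosolic ribosomal proteins, with 4 falls and 0 rises, and -0.179 for oxidative phosphorylation subunits, with 24 falls (33.8%, against 23.2% of all genes) and 0 rises. The assembly factors then had 7 falls and 1 rise, and the RNA synthesis and processing genes 11 falls. Of the 25 genes named from these lists 15 lost their call without the 8 h arrays and 13 without the 12 h arrays. In the first case these were ATP5MC1, DDX28, FASTKD2, MTRFR, MYC, NDUFA9, PRORP, REXO2, RPL29, RPL36A, RPS23, RPS7, SLIRP, SUPV3L1 and UQCR11, with adjusted p between 0.0525 and 0.0882. Without the 12 h arrays MRPS18C and MRRF lost it too (adjusted p of 0.0667 and 0.058), and without the 24 h arrays NDUFA9 and UQCR11 did (0.0536 and 0.0555).

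**Figure D5:**
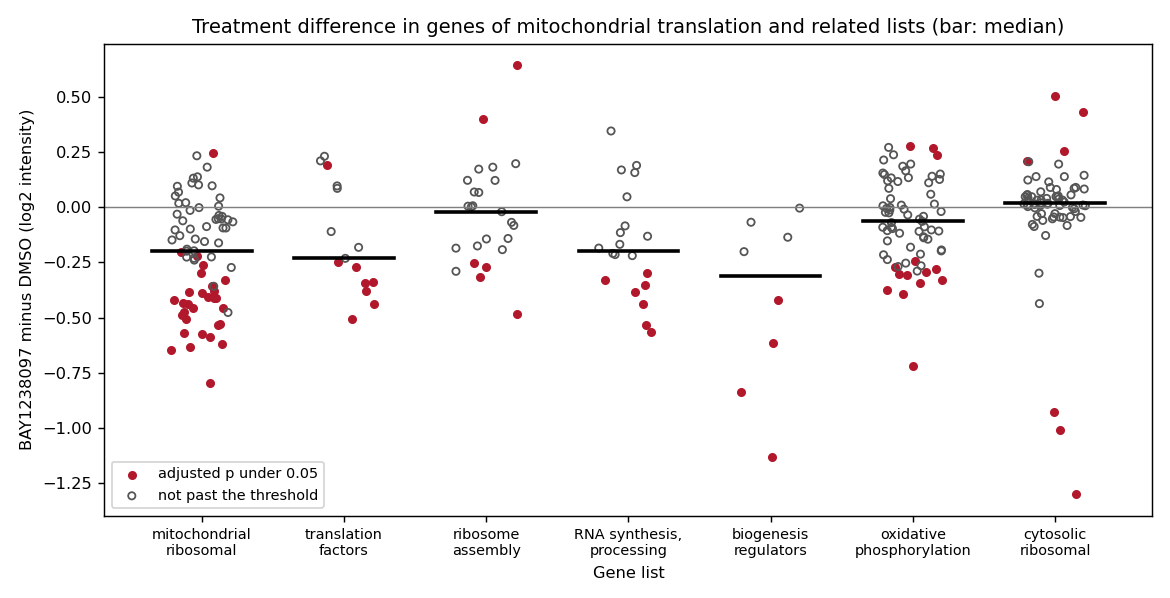
Each point is 1 gene's mean difference BAY1238097 minus DMSO in log2 intensity, with filled points past an adjusted p of 0.05 and a bar at the median of each list. The medians of the mitochondrial ribosomal proteins (-0.197), the translation factors (-0.231), the RNA synthesis and processing genes (-0.197) and the biogenesis regulators (-0.31) lie below those of the assembly factors (-0.0199), the oxidative phosphorylation subunits (-0.0637) and the cytosolic ribosomal proteins (0.0193).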

How the data were processed

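RNA of DOHH2 cells was labelled with biotin and hybridised to 8 Illumina bead arrays, per the labels' protocols. The deposited intensity table holds 1 linear intensity per probe for 47231 probes, with no normalisation visible in its values and 10 unnamed columns that hold 0 values. The values in the table that the authors normalised and deposited are log2 intensities. Own quantile normalisation of the log2 intensities gave those values within 0.00126; other upstream steps are not given in the sources used here.

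No detection p-values were used. The brightness of 437 olfactory receptor probes served as background, and 18640 probes brighter than it with p under 0.05 on at least 4 arrays were kept. This changed the plan, which assumed detection p-values. Genes took their brightest kept probe, which for all 75 members was also the brightest in the deposited values. Names came from the platform annotation table.

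Tests used limma 3.58.1 in R 4.3.3 (lmFit, eBayes) over 10443 genes with Benjamini-Hochberg adjustment and a threshold of 0.05. The treatment effect had the time as a factor, treatment by time used centred log2 hours, and slopes came from treatment, log2 hours and their product. Arrays of a time were treated as pairs because each time holds 1 array of each treatment, and their deviations from the group means correlated with r = 0.59, 0.44, 0.68 and 0.48 at 4, 8, 12 and 24 h. Errors are standard errors of the fit or SD where stated. The number of arrays limits the precision. Steps were tested on simulated data. Figures used matplotlib 3.10.9 in Python 3.11.15.

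The members and lists were chosen with earlier results of these data known. Named are the 15 largest falls and 8 largest rises among called members with 1 sign at all times, any further member called higher, the 4 smallest changes, up to 5 of each time test in each direction, up to 4 called genes per list, and members whose probes differ in sign or call. Members named beside printed sequences, divergent neighbours, the subunit classes or the threshold were chosen after their values were seen. Normalisation, background correction, filter, variance, array weights, probe choice, the time factor and each time point were varied in 14 settings.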

Additional observations from a re-analysis of the deposited data

Results flagged for a closer look

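Among 114 groups of 4 arrays examined for named genes, 2 had an array far from the other 3 by Dixon's criterion, which chance gives in about 1 of 20 groups. SLIRP was 12.36 on the BAY1238097 array at 24 h, below the other BAY1238097 arrays at 12.56, 12.53 and 12.55. NDUFC1 was 8.905 on the DMSO array at 4 h, above the other DMSO arrays at 8.45, 8.51 and 8.48. MRPL23 was flagged because its difference between BAY1238097 and DMSO changed with time, by -0.39408 log2 units per doubling of hours (adjusted p = 0.0389 in limma).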

How the results depend on the processing

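The count of members that fell was 44 with median scaling (against 23.2% of all genes) and 45 with background correction and median scaling (against 25.4%). It was 39 with array weights (against 22.8%) and 11 with no replicate block (the pairing by time left out, against 7.3%). With 1 time left out it was between 15 and 33, against 5.86% to 19.5% of all genes. Background correction with median scaling moved the median of all genes by -0.114. The count that rose was 0 with median scaling (against 7.73% of all genes) and with background correction and median scaling (against 7.21%). It was also 0 with an intensity trend (against 16%) and with no replicate block (against 6.92%). With array weights 4 rose, against 24% of all genes, and with 1 time left out 0 to 2 rose, against 6.17% to 20%. The members' median was -0.375 with median scaling and -0.415 with background correction added, that of the large subunit -0.36 and -0.406, and that of the small subunit -0.439 and -0.487. Falls by treatment and time numbered 2 and 3 under these scalings, 0 with array weights and 0 to 6 with 1 time left out, with 0 to 1 rises. Declining DMSO trends numbered 0 and 0 under these scalings and 0 to 7 with 1 time left out. Climbing ones numbered 0 and 0, 1 with no filter and 0 to 16. Declining BAY1238097 trends numbered 0 and 0, 5 with no filter, 0 with array weights and 0 to 4, and climbing ones 0 to 7. No shares of all genes are given beside these counts of the time tests, so they are not read as a trait of the members. Small differences changed sign. MRPL45 was -0.2 and -0.234 under these scalings, -0.0021 with array weights, -0.11 with the mean of its probes and -0.033 to 0.0641 with 1 time left out. MRPS33 was -0.193 and -0.225, and -0.00643 to 0.0832 with 1 time left out (-0.0021 without 8 h and -0.00213 without 24 h). MRPS6 was -0.16 and -0.191, -0.00178 with array weights, and -0.0205 to 0.028 with 1 time left out (-0.00103 without 12 h). MRPS11 was -0.108 and -0.14. MRPL55 was 0.0173 with array weights, 0.0179 without 8 h and -0.0559 to 0.0704 with 1 time left out, and MRPS18A -0.0319 to 0.0289. The cause of these changes was not tested. All 30 members called kept their sign in each of the 14 settings. Dim genes have compressed log2 differences because background was not subtracted.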
